A study of Homo sapiens with 46 samples.

Results

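ENSG00000280441, ENSG00000280614 and ENSG00000280800 are 3 unnamed Ensembl genes of chromosome 21 that took a large and variable part of the counts in this series of fractionated human cells. They were chosen by identifier from the 4 count tables that were each built on the transcript assembly of 1 cell type, and they are 3 of the 21166 Ensembl genes listed in any of those tables. The genes had been picked out because their counts were very high and differed between libraries, so their levels are given as a description, without a test of that abundance or of that spread. Together the 3 genes own 24 transcript rows in the 4 tables: the hPSC table holds 7 of them among 32819 rows, ectoderm 8 of 54325, endoderm 5 of 30409 and mesoderm 4 of 36407. None of the 24 rows carries an Ensembl transcript identifier. ENSG00000280614 and ENSG00000280800 have 1 row in each table, and ENSG00000280441 has 2 in mesoderm, 3 in endoderm, 5 in hPSC and 6 in ectoderm.

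The cells were the H1 line of human pluripotent stem cells (hPSC) and 3 cultures made from it, so all groups share 1 genotype and 1 line. The hPSC were kept on Matrigel in mTeSR1. Endoderm was made in RPMI with WNT3A and Activin A. Mesoderm was made in DMEM/F12 with VEGF, BMP4 and bFGF, with Activin A during the first 24 hours. Ectoderm was made in DMEM/F12 with KOSR, A83-01, PNU-74654 and Dorsomorphin. Differentiated cells were collected after 5 days. The series' design text names actinomycin D, but no label of these samples gives that drug or a time after it. Each culture was split into cytoplasm, nucleus, nucleoplasm and chromatin with NP-40 buffers that held α-amanitin; nuclear RNA came from a portion of the pellet that was then divided into nucleoplasm and chromatin. The nuclear columns carry the code Nei, which was read as nucleus because it is the only fraction of the titles without another code. This gave 46 libraries in 16 groups, 15 with 3 libraries and mesoderm nucleoplasm with 1. The only mesoderm nucleoplasm column is numbered 3 while the only such sample is titled Repeat 1, so the column was matched to its group and not by its number. The labels do not say that replicates were separate cultures, so p-values measure only the spread between these libraries. Whether ribosomal RNA was removed before sequencing, and whether reads were counted by strand, is not given in the sources used here. Reads from a gene and from a gene on its other strand can therefore not be told apart.

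Ribosomal RNA is made in the nucleolus, where RNA polymerase I copies tandem repeats of ribosomal DNA on the short arms of the acrocentric chromosomes, chromosome 21 among them. Each repeat gives a long 45S precursor, which is cut and trimmed to the mature 18S, 5.8S and 28S RNAs; spacer pieces are discarded. The repeats are nearly identical, so a short read can match several of them, and the count of any single copy is uncertain.

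All 3 genes lie in such copies. In GENCODE 29 on GRCh38, ENSG00000280614 is a long intergenic noncoding RNA of 1 exon and 923 bases on the minus strand (chr21:8393419-8394341). It lies inside RNA18SN3 (chr21:8392666-8394534, 1869 bases, RefSeq), an 18S gene on the plus strand within the 45S gene RNA45SN3 (chr21:8389035-8402343). ENSG00000280800 has the same type, length and strand (chr21:8210384-8211306) inside RNA18SN2 (chr21:8209631-8211499) of RNA45SN2 (chr21:8205988-8219302). ENSG00000280441 is on the plus strand and spans 29981 bases (chr21:8380665-8410645) with 7 exons of 2498 bases in all. RNA45SN3 lies wholly in one of its introns, and none of its exonic bases overlap that 45S gene. The file version of this identifier is 3 and the annotation's is 2, so its deposited model may differ from the one described here. Another 3 Ensembl genes of the tables sit in sister copies: ENSG00000278996 around RNA45SN2, ENSG00000281181 inside RNA18SN1 and ENSG00000281383 inside RNA18SP5.

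The annotated transcripts of the genes are copies of one another. Over all 923 bases the transcripts of ENSG00000280614, ENSG00000280800 and ENSG00000281181 are identical. ENSG00000281383 matches them at 920 bases, with 2 mismatches and 2 gap bases (99.7% identity). Over all 2498 exonic bases ENSG00000280441 and ENSG00000278996 are identical. The first 3 lines below show the stretch, from base 61 of the transcript, that holds both mismatches and 1 of the gap bases among the short genes; capitals mark the bases at which ENSG00000281383 and the other genes differ. The last line is the start of exon 1 of ENSG00000280441, which ENSG00000278996 shares. Sequences are from GRCh38 and run 5′ to 3′ on the strand of the gene.
ENSG00000280614 (chr21:8394162-8394281, minus): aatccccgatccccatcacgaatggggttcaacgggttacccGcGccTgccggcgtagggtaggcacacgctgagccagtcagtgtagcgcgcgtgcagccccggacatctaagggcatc
ENSG00000280800 (chr21:8211127-8211246, minus): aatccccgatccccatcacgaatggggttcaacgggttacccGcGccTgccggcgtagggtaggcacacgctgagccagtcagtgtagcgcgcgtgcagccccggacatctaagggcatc
ENSG00000281383 (chr21:8255336-8255454, minus): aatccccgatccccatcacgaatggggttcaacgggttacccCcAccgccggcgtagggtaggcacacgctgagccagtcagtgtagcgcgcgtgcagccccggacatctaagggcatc
ENSG00000280441 (chr21:8380665-8380784, plus): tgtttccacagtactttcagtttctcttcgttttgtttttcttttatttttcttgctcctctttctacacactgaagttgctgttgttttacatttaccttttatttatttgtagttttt

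**Figure D1:**
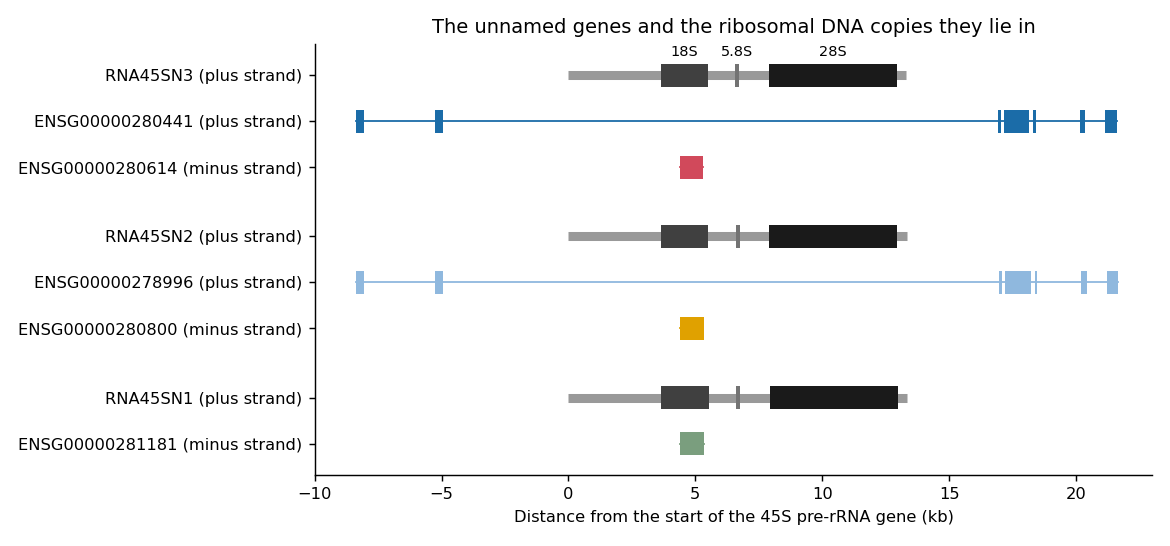
Position of the unnamed genes (colours; blocks are exons, thin lines introns) and of the RefSeq 45S, 18S, 5.8S and 28S genes (greys) in 3 ribosomal DNA copies, as distance in kb from the start of the 45S gene. The short minus-strand genes lie inside 18S, and the exons of ENSG00000280441 and ENSG00000278996 lie outside the 45S gene.

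The transcripts that the authors assembled for ENSG00000280614 and ENSG00000280800 were longer than the annotated 923 bases. Effective lengths can be read from the ratio of a row's count to its TPM, and were turned into lengths with at least 3399 Ensembl-matched transcripts per library. Among those matched transcripts a median of 78.2% per library came out within 10% of their annotated length. For ENSG00000280614 the row was estimated at 1894 bases in endoderm, 2982 in ectoderm, 3427 in hPSC and 3436 in mesoderm. For ENSG00000280800 it was 1999, 3418, 3427 and 2123 bases in the same order. The endoderm row of ENSG00000280614 is thus close in length to an 18S gene, and the hPSC, ectoderm and mesoderm rows are longer than one. For ENSG00000280441, 12 of 16 rows had a library with at least 100 counts, as the estimate needs. These were estimated as shorter than its annotated 2498 exonic bases, from 334 to 1456 bases. The estimates come from a line fitted in each library on transcripts longer than most of these rows. The short ones are therefore extrapolated, and the 78.2% does not cover them. The line's intercept ran from 257 to 405 bases, and no estimate can fall under it, so the lowest estimates lie near that floor. The deposited tables list no sequence or coordinates for these rows, so which part of the repeat each covers was not examined.

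Levels are given as CPM, the counts of a gene scaled to a fixed library total. Each cell type was counted on its own assembly, so in these levels cell type and assembly cannot be told apart. ENSG00000280441 ranged from 2.92 CPM in hPSC nucleoplasm 3 to 24678 CPM in endoderm chromatin 3, where it was among the most abundant genes; it ranked among the first 10 genes in 15 of 46 libraries and was at 0 in none. In hPSC it was low, at 9.36, 10.4 and 6.24 CPM in cytoplasm replicates 1, 2 and 3, at 7.52, 9.98 and 6.72 in nucleus and at 10.95, 12.3 and 27.6 in chromatin. In hPSC nucleoplasm the values were 6.93, 4406 and 2.92 CPM, so 1 library stood far from the other two. Ectoderm gave 161, 7308 and 981 CPM in cytoplasm, 185, 758 and 254 in nucleus, 2846, 1371 and 1797 in nucleoplasm and 404, 2980 and 546 in chromatin. Replicate 2 was the highest of the 3 in cytoplasm, nucleus and chromatin, and the lowest in nucleoplasm.

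In endoderm the same gene was high in every fraction. Its values were 9189, 12105 and 9506 CPM in cytoplasm, 912, 15536 and 6146 in nucleus, 4309, 12904 and 9572 in nucleoplasm and 18339, 13813 and 24678 in chromatin. Mesoderm gave 3447, 4221 and 7081 CPM in cytoplasm, 8627, 1686 and 202 in nucleus, 524, 13033 and 871 in chromatin and 12776 in the single nucleoplasm library. Ordered by their median library, the 16 groups form 15 neighbouring pairs, and in 11 of these the ranges overlapped. Those that did not overlap were endoderm chromatin above mesoderm nucleoplasm, mesoderm cytoplasm above ectoderm nucleoplasm, ectoderm nucleus above hPSC chromatin, and hPSC chromatin above hPSC cytoplasm.

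ENSG00000280614 was low in hPSC and very high in endoderm cytoplasm and nucleoplasm. In hPSC it had 0.960, 1.00 and 0 CPM in cytoplasm, 28.01, 123 and 12.3 in nucleus, 0.877, 0.855 and 1.42 in nucleoplasm and 8.29, 5.82 and 9.12 in chromatin. On the ectoderm assembly, ectoderm was low outside chromatin: cytoplasm gave 28.7, 37.8 and 63.4 CPM, nucleus 55.3, 47.6 and 35.9, and nucleoplasm 45.4, 7.79 and 19.3. Chromatin on that assembly gave 226, 3692 and 246 CPM, with replicate 2 far above the others. This order belongs to the ectoderm assembly: on the combined assembly, given further below, the same nucleoplasm libraries had 10224, 8388 and 10145 CPM. Endoderm gave 7432, 13845 and 11502 CPM in cytoplasm, 266, 6808 and 1946 in nucleus, 5924, 19265 and 12566 in nucleoplasm and 844, 268 and 2888 in chromatin. Mesoderm showed another order, with 7.75, 38.0 and 33.2 CPM in cytoplasm, 2818, 309.7 and 1443 in nucleus, 24.7 in the nucleoplasm library and 6053, 5274 and 2179 in chromatin. It was among the first 10 genes in 7 libraries and at 0 in 1. Of its 15 neighbouring pairs of groups, 12 overlapped; endoderm cytoplasm lay above mesoderm chromatin, ectoderm chromatin above ectoderm nucleus, and hPSC chromatin above hPSC cytoplasm.

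ENSG00000280800 was highest in mesoderm cytoplasm and nucleoplasm. In hPSC its counts equalled those of ENSG00000280614 in 12 of 12 libraries, so the 2 genes give 1 measurement there. Mesoderm gave 7227, 8091 and 19553 CPM in cytoplasm and 34360.2 in the nucleoplasm library, where the gene ranked first of all genes. In mesoderm nucleus it was listed at 0, 1727 and 0 CPM, and in mesoderm chromatin at 0 in all 3 libraries. Endoderm had 2.61, 10.0 and 0 CPM in cytoplasm, 0, 93.9 and 50.9 in nucleus, 0 in all 3 nucleoplasm libraries and 195, 197 and 260.0 in chromatin. Ectoderm had 70.1, 55.7 and 250.0 CPM in cytoplasm, 203, 176 and 151 in nucleus, 115, 31.0 and 53.5 in nucleoplasm and 558, 7351 and 530.0 in chromatin. The gene was among the first 10 in 5 libraries and at 0 in 11. Its ranges overlapped in 11 of 15 neighbouring pairs; the gaps were mesoderm nucleoplasm above mesoderm cytoplasm, ectoderm chromatin above endoderm chromatin, hPSC nucleus above hPSC chromatin, and hPSC nucleoplasm above endoderm nucleoplasm.

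**Figure D2:**
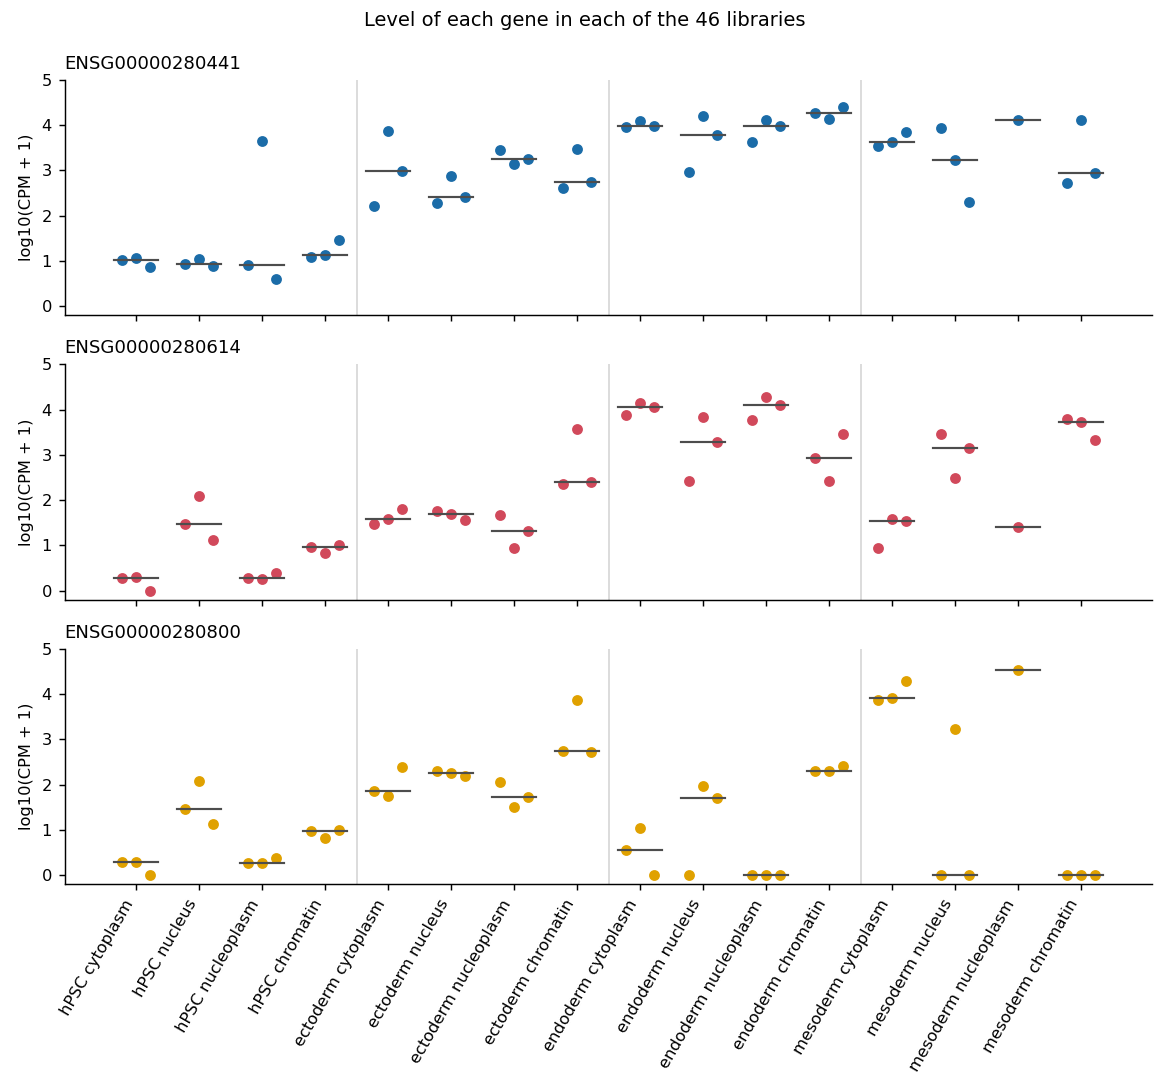
Level of each gene in each of the 46 libraries as log10(CPM + 1), by cell type and fraction (points: libraries; bars: group medians). ENSG00000280441 is low in hPSC except in nucleoplasm 2 (4406 CPM), and ENSG00000280614 and ENSG00000280800 peak in different cell types. Each cell type was counted on its own assembly, so cell type and assembly cannot be told apart.

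Spread between replicates was large. The 3 genes together took from 0.000576% of the counts (hPSC nucleoplasm 3) to 4.72% (mesoderm nucleoplasm), a ratio of 8182, with a median of 0.303%; in 17 of 46 libraries they took over 1%. Within the 15 groups of 3 libraries the coefficient of variation of their summed CPM had a median of 53.0% and ran from 22.0% to 172%. The median gene of a group had a coefficient of variation of 10.1% at the median group. Over the groups in which the single gene had a mean of at least 10 CPM, the medians were 78.5% for ENSG00000280441 (13 groups), 70.7% for ENSG00000280614 (12 groups) and 86.4% for ENSG00000280800 (9 groups). In ectoderm chromatin, replicate 2 was high for all 3 genes, and RNA5-8SN1, a 5.8S gene, was high there too, at 2932 counts against 112 and 137 in replicates 1 and 3. The same 5.8S gene was not high in ectoderm cytoplasm 2, where ENSG00000280441 was; its counts in cytoplasm were 13, 20 and 188. In mesoderm another 5.8S gene, RNA5-8SN4, had 3001, 3215 and 7718 CPM in cytoplasm, 5543, 1226 and 71.4 in nucleus, 213, 7163 and 420.2 in chromatin and 8431 in the nucleoplasm library, so within each fraction the replicates stood in the same order as for ENSG00000280441. With the 3 genes left out of the library total, 43 of 45 group shares of a member moved by less than the SD of their replicates, and the other two were at 0.

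Counts of the 6 genes of these repeats were divided differently among the genes in each cell type, each counted on its own assembly. Their sum spanned a narrower range than the 3 members. The shares that follow are of counts pooled over the libraries of a cell type, so deep or high libraries weigh more. ENSG00000278996, whose annotated exons equal those of ENSG00000280441, took 91.5% of the 6-gene counts in hPSC and led in 12 of 12 libraries. There ENSG00000280441 took 6.52%, ENSG00000281181 1.39%, and ENSG00000280614 and ENSG00000280800 0.276% each. In ectoderm it took 56.4% and led in 8 of 12 libraries; ENSG00000280441 took 25.4% and led in the other 4 (cytoplasm 1 and 3, nucleus 2 and 3), and ENSG00000280800 took 12.4% and ENSG00000280614 5.84%. In endoderm ENSG00000278996 took 0.0578%, with 58.8% on ENSG00000280441, which led in 7 of 12 libraries, and 35.8% on ENSG00000280614, which led in 5 (cytoplasm 2 and 3 and all of nucleoplasm). The mesoderm table holds no row of ENSG00000278996, and there 46.7% of the counts were on ENSG00000280800, 34.5% on ENSG00000280441 and 11.97% on ENSG00000280614. Mesoderm libraries differed in their leading gene: ENSG00000280800 led in 5 of 10 (cytoplasm, nucleoplasm and nucleus 2) and was at 0 in the other 5, of which ENSG00000280441 led in 2, ENSG00000280614 in 2 and ENSG00000281181 in 1. Summed over the 6 genes, the share ran from 0.0175% (hPSC cytoplasm 1) to 4.72%, a ratio of 269 against 8182 for the 3 genes, with a median of 1.06%; 24 libraries were over 1%. The median coefficient of variation within groups was not smaller, at 53.1%, with a range of 16.3% to 149%. Single groups moved both ways. In hPSC nucleoplasm it was 38.1% for the 6 genes and 172% for the 3, and in hPSC cytoplasm 88.0% and 33.0%. The 6-gene sum was added after the data had been seen. It leaves out ECT.23131.1, an ectoderm row without an Ensembl gene whose locus number lies among those of these genes. That row held 664916 counts, which are missing from the ectoderm shares above and from every sum on the ectoderm assembly.

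**Figure D3:**
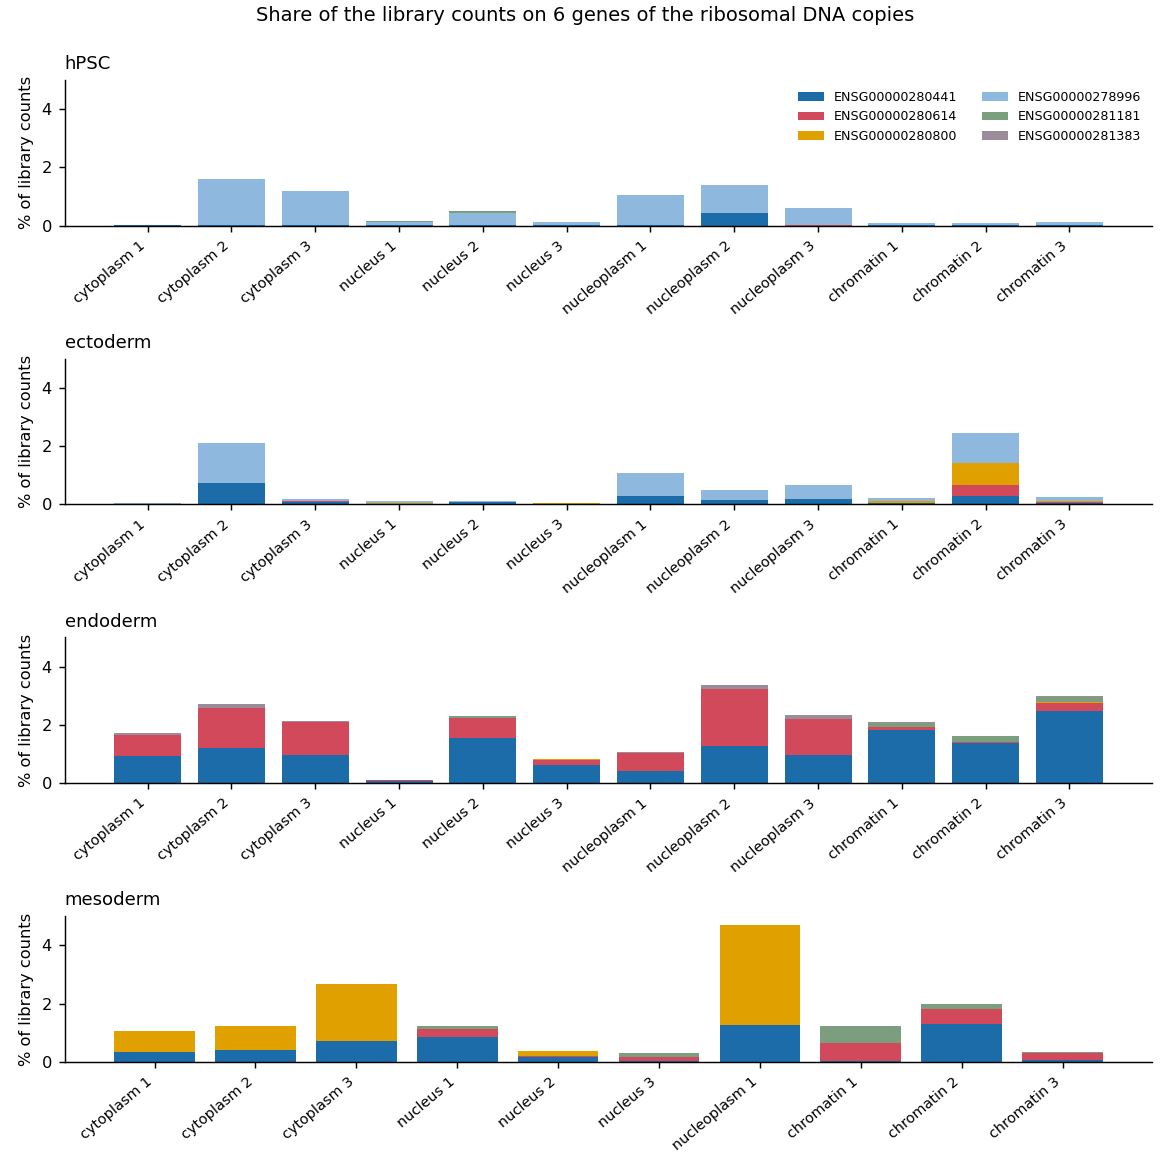
Percent of each library's counts on the 3 genes and on the other 3 Ensembl genes of the same repeats (stacked bars, 1 per library, same axis in all panels). ENSG00000278996 fills most of the bars in hPSC, ENSG00000280441 and ENSG00000280614 those in endoderm, and ENSG00000280800 most of the mesoderm cytoplasm bars.

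Single transcript rows carried most of each gene. Of the hPSC counts of ENSG00000280441, 97.5% were on ESC.15734.1, which had 61672 counts in nucleoplasm 2, 37 and 7 in cytoplasm 1 and 3, and 0 in the other 9 libraries. The high value of that nucleoplasm library is therefore 1 row. In endoderm, END.14023.1 held 89.9% of the gene's counts and was the largest row in 12 of 12 libraries, with 12201 to 261014 counts. In mesoderm, MES.16536.1 held 99.4%, with 1716 to 204428 counts. Ectoderm was the exception, with ECT.23134.1 at 39.4%, ECT.23136.1 at 35.1%, ECT.23135.1 at 13.3% and ECT.23141.1 at 9.11%. MES.16529.1, the mesoderm row of ENSG00000280800, was at 0 in 5 of 10 libraries and reached 549809 counts in the nucleoplasm library.

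The ectoderm libraries were deposited on a second assembly too, which combines the cell types, on which the levels of ENSG00000280614 were higher in all 12 libraries, while those of ENSG00000280441 moved less. On the combined assembly ENSG00000280614 has 3 rows, and its levels in ectoderm nucleoplasm were 10224, 8388 and 10145 CPM, against 45.4, 7.79 and 19.3 on the ectoderm assembly. Cytoplasm gave 62.8, 13605 and 811 CPM, nucleus 584, 507 and 206, and chromatin 1199, 6424 and 1539. Of its counts there, 91.9% were on hEDT_00060866. ENSG00000280800 has no row on the combined assembly. ENSG00000280441 stayed nearer to its own-assembly values, at 148, 6461 and 789 CPM in cytoplasm and 2345, 1587 and 1493 in nucleoplasm, with its widest gap in nucleus (279, 297 and 104). On the ectoderm assembly, a row without an Ensembl gene, ECT.23131.1, stands in the same run of locus numbers (between ECT.23126 and ECT.23141), with an estimated length of 1060 bases. It held 664916 counts in all, and its largest value, 264587 counts or 14681 CPM, was in cytoplasm 2, the library where ENSG00000280614 was highest on the combined assembly.

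**Figure D4:**
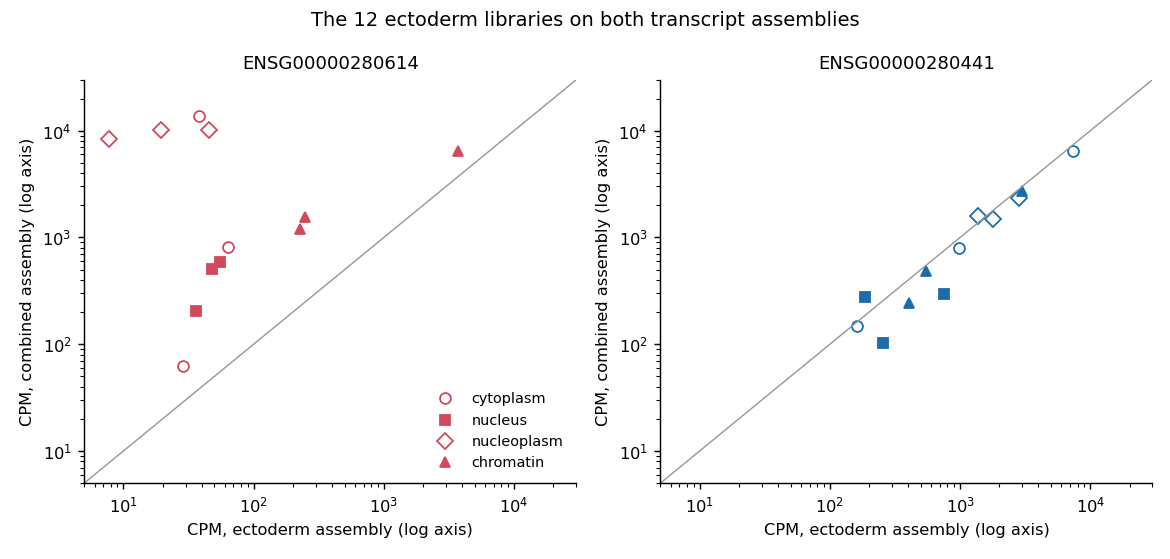
CPM of ENSG00000280614 (left) and ENSG00000280441 (right) in the 12 ectoderm libraries on the ectoderm assembly (x, log axis) and the combined assembly (y, log axis), with the line of equal values. All 12 points of ENSG00000280614 lie above the line, while those of ENSG00000280441 lie near it.

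The depth and identity of the libraries bear on what follows. Totals were 4990408 to 21298678 counts. In cytoplasm, hPSC markers summed to 7641 to 8604 CPM in hPSC, but still to 4947 to 5874 in endoderm, 2732 to 2862 in mesoderm and 2173 to 2705 in ectoderm. Of these markers, SOX2 was at 0 or not listed in endoderm, NANOG in ectoderm, and NANOG, SOX2 and TDGF1 in mesoderm. Ectoderm markers summed to 1144 to 1369 CPM in ectoderm and endoderm markers to 577 to 759 in endoderm. All endoderm markers were at 0 or not listed in hPSC and ectoderm. Mesoderm markers summed to 456 to 497 CPM in mesoderm but 473 to 610.3 in endoderm, and the mesoderm table holds no GATA4, MESP1, MIXL1, FOXF1 or KDR; SOX1 is not in the ectoderm table. Fraction markers went partly against the labels. MALAT1, a nuclear noncoding RNA, was higher in the libraries labelled cytoplasm than in those labelled nucleus by 1.44 on the log2 scale in hPSC (adjusted p = 0.000128) and by 3.04 in ectoderm (adjusted p = 0.000246). NEAT1, another nuclear RNA, was higher there by 1.35 in hPSC (adjusted p = 0.00282) and by 2.55 in ectoderm (adjusted p = 7.76e-06), and lower by 0.97 in mesoderm (−0.97, adjusted p = 0.00319). The mRNA of RPLP0, a ribosomal protein, was higher in cytoplasm in hPSC (1.55), endoderm (0.80) and mesoderm (3.20) and lower in ectoderm (−0.72), each called. Mitochondrial ribosomal RNAs, which lie outside the nucleus, were lower in cytoplasm than in nucleus in hPSC, ectoderm and endoderm (values further below). Fractions below are named as labelled, and the part of this in any member's change was not tested.

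Cytoplasm was compared with nucleus within each cell type by edgeR's quasi-likelihood test over all genes, with Benjamini-Hochberg adjusted p called under 0.05; the log2 change is cytoplasm minus nucleus. The short genes were lower in hPSC cytoplasm: ENSG00000280614, and with the same counts ENSG00000280800, fell by 6.54 (SE 0.92, adjusted p = 3.27e-05), and their ranges did not overlap. ENSG00000280441 differed by 0.03 (SE 1.70, adjusted p = 0.988). So 2 of 3 members were called in hPSC, where 65.4% of all genes tested were. In ectoderm 0 of 3 were called (1 of 3 at an unadjusted p under 0.05, 1 with limma-trend on TPM and 0 with DESeq2, which gave an adjusted p for 1 member), against 53.7% of all genes. There ENSG00000280441 was 2.47 higher in cytoplasm (SE 1.13, adjusted p = 0.0813), and this passed the test without cytoplasm 1 (3.07, adjusted p = 0.0250) and without nucleus 2 (3.59, adjusted p = 0.0249), but fell to 0.03 without cytoplasm 2. In endoderm 1 of 3 was called, against 69.8%. That was ENSG00000280800, lower in cytoplasm (−4.05, SE 1.21, adjusted p = 0.00929) though the ranges overlapped, and not called with DESeq2 (adjusted p = 0.130) or limma-trend on TPM (adjusted p = 0.0737).

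Mesoderm differed from endoderm in which gene stood where, each counted on its own assembly. Its ENSG00000280614 was lower in cytoplasm by 5.75 (−5.75, SE 0.89, adjusted p = 0.000205) without overlap, 1 of 3 members called against 63.3% of all genes. In endoderm the same gene was higher in cytoplasm in every library, but the change of 1.31 missed the threshold (SE 0.84, adjusted p = 0.176); without nucleus 2 it was 2.70 (adjusted p = 0.0131) and without nucleus 1 it was 0.79. Mesoderm ENSG00000280800 did not overlap between fractions, at 7227 CPM or more in cytoplasm and at most 1727 in nucleus, and its fitted change of 4.48 missed the threshold (SE 2.38, adjusted p = 0.127); without nucleus 2, the only nuclear library with counts, it passed (adjusted p = 3.42e-05). With the 6 genes as 1 feature, 65.4%, 53.8%, 69.8% and 63.3% of features were called in hPSC, ectoderm, endoderm and mesoderm, and the sum of the 6 was called in 0 of 4 (1 of 4, ectoderm, at an unadjusted p under 0.05). Its changes were 1.75 in hPSC (SE 0.94, adjusted p = 0.116), 2.75 in ectoderm (SE 1.21, adjusted p = 0.0701), 0.45 in endoderm (SE 0.62, adjusted p = 0.533) and 1.46 in mesoderm (SE 0.70, adjusted p = 0.0861). One library decided several of these. The hPSC sum ran from 1.08 to 2.69 without 1 library and was called without cytoplasm 1 (2.33, adjusted p = 0.00191). The ectoderm sum was called without cytoplasm 1 (3.36, adjusted p = 0.0249) or 3 (3.28, adjusted p = 0.0461) and on the combined assembly (3.15, adjusted p = 0.0498), and was at −0.23 without cytoplasm 2. Without nucleus 2 the endoderm sum was called (1.58, adjusted p = 0.0241), as was the mesoderm sum without nucleus 1 (2.40, adjusted p = 0.0180); their ranges were −0.054 to 1.58 and 0.89 to 2.40.

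Chromatin was compared with nucleoplasm in the 3 cell types with replicates of both. In hPSC all 3 members were called, against 30.5% of genes, but the calls were fragile. ENSG00000280614 and ENSG00000280800 have equal counts in hPSC, so their calls are 1 measurement. ENSG00000280441 was lower in chromatin (−6.70, SE 1.89, adjusted p = 0.0177) through nucleoplasm 2; without that library it was higher in chromatin by 1.55 (adjusted p = 0.0320). Its call was also lost without chromatin 2. It was not called with limma-trend on TPM (−1.25, adjusted p = 0.569) or with the replicate block (−4.66, adjusted p = 0.185). ENSG00000280614 and ENSG00000280800 were higher in chromatin by 2.63 (SE 0.85, adjusted p = 0.0330) without overlap, and lost the call when any 1 of these was left out: chromatin 1 (adjusted p = 0.0534), chromatin 3 (0.0713) or nucleoplasm 1, 2 or 3 (0.0971, 0.0942 and 0.0652). In ectoderm 2 of 3 were called, against 44.1%: ENSG00000280614 was higher in chromatin by 5.59 (SE 1.06, adjusted p = 0.00103) and ENSG00000280800 by 5.17 (SE 1.04, adjusted p = 0.00152). Without chromatin 2 they were 3.02 and 2.78, still called. On the combined assembly the first of these turned to −1.84 (adjusted p = 0.245). In endoderm 2 of 3 were called, against 53.5%. ENSG00000280614 was lower in chromatin (−3.84, SE 0.93, adjusted p = 0.00267), whereas ENSG00000280800 was at 0 in all nucleoplasm libraries and at least 853-fold higher in the lowest chromatin library, against a floor of 3 counts per library (adjusted p = 0.000451). The 6 genes summed were lower in hPSC chromatin (−3.64, SE 1.02, adjusted p = 0.0166) and were not called in ectoderm (0.16, adjusted p = 0.925) or endoderm (−0.60, adjusted p = 0.440), in fits that called 30.5%, 44.1% and 53.5% of features.

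Each differentiated cell type was then compared with hPSC in the same fraction. The tables being compared were counted on separate assemblies, so cell type and assembly cannot be told apart in what follows. The 3 comparisons of a fraction share their hPSC libraries. ENSG00000280614 and ENSG00000280800 have equal counts in hPSC, so their changes share the same hPSC values. The members were picked for high counts that differed between these libraries, and the adjusted p does not allow for that choice. In cytoplasm ENSG00000280441 was higher than in hPSC by 8.36 in ectoderm (SE 1.14, adjusted p = 7.96e-06), 10.04 in endoderm (SE 1.21, adjusted p = 6.20e-06) and 9.11 in mesoderm (SE 1.17, adjusted p = 7.09e-06). ENSG00000280614 was higher by 6.06, 13.95 and 5.39 (adjusted p = 2.59e-06, 3.08e-09 and 1.53e-05). ENSG00000280800 was higher by 7.57 in ectoderm (adjusted p = 1.97e-05) and 14.17 in mesoderm (adjusted p = 1.81e-07) and missed the threshold in endoderm (2.61, adjusted p = 0.0937). This is 3, 2 and 3 of 3 members, against 76%, 58.1% and 68.1% of all genes. With the 6 genes as 1 feature, 75.9%, 59.5% and 68.4% of features were called and the sum in none of the 3. Its changes were −0.28 (SE 1.17, adjusted p = 0.832), 1.00 (SE 1.18, adjusted p = 0.485) and 0.75 (SE 1.17, adjusted p = 0.583). Without ectoderm cytoplasm 2 the ectoderm sum was lower than in hPSC (−3.26, adjusted p = 0.0233). The ectoderm sum leaves out ECT.23131.1. With all rows of the locus, ectoderm cytoplasm had 666, 35585 and 2630 CPM. In hPSC cytoplasm those rows had 175, 16091 and 11820 CPM, and this change was not tested.

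In nucleus, ENSG00000280441 was higher than in hPSC by 5.79 in ectoderm (adjusted p = 0.00130), 10.10 in endoderm (adjusted p = 7.65e-05) and 8.65 in mesoderm (adjusted p = 0.000183). ENSG00000280614 was higher by 6.01 in endoderm (adjusted p = 0.000620) and 4.67 in mesoderm (adjusted p = 0.00252) and was at −0.18 in ectoderm (adjusted p = 0.884). ENSG00000280800 was called in none, with 1.76, 0.04 and 3.18 (adjusted p = 0.439, 0.986 and 0.188); in mesoderm the value comes from nucleus 2 alone, and without it the gene was lower than in hPSC (adjusted p = 0.00767). Members called were 1, 2 and 2 of 3, against 57.6%, 57.4% and 54.1% of genes. The 6-gene sum (57.7%, 57.4% and 54% of features called) was called in endoderm alone (2.30, SE 0.81, adjusted p = 0.0268), and it was not without nucleus 2 of endoderm (1.18, adjusted p = 0.194) or without hPSC nucleus 1 or 3 (adjusted p = 0.0963 and 0.0961).

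In chromatin 3 of 3 members were called in each cell type, against 62.9%, 61.9% and 54.6% of genes (ectoderm, endoderm, mesoderm). The hPSC values of ENSG00000280614 and ENSG00000280800 are the same, so their calls are not separate on that side. The adjusted p does not allow for how the members were picked. ENSG00000280441 was higher than in hPSC by 6.33, 10.31 and 8.35 (adjusted p = 0.000660, 5.70e-05 and 0.000208), and ENSG00000280614 by 7.56, 7.61 and 9.30 (adjusted p = 0.000159, 0.000192 and 7.95e-05). ENSG00000280800 was higher by 8.58 in ectoderm (adjusted p = 3.27e-05) and 4.99 in endoderm (adjusted p = 0.000779). In mesoderm it went the other way, at 0 in all 3 libraries and at least 9.68-fold higher in the lowest hPSC library (adjusted p = 0.00941). Here the 6-gene sum was higher too (63%, 61.9% and 54.6% of features called), by 3.40 in ectoderm chromatin (SE 0.88, adjusted p = 0.00398), 4.72 in endoderm (SE 0.94, adjusted p = 0.000664) and 3.78 in mesoderm (SE 0.90, adjusted p = 0.00285). In CPM the sum was 795 to 1106 in the hPSC chromatin libraries and at least 2059 in every differentiated one. Without ectoderm chromatin 2 the ectoderm change of the sum was 1.22 (adjusted p = 0.0704) and that of ENSG00000280614 was 4.89; without mesoderm chromatin 2 that of ENSG00000280441 in mesoderm was 5.45. Both of the latter were still called.

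**Figure D5:**
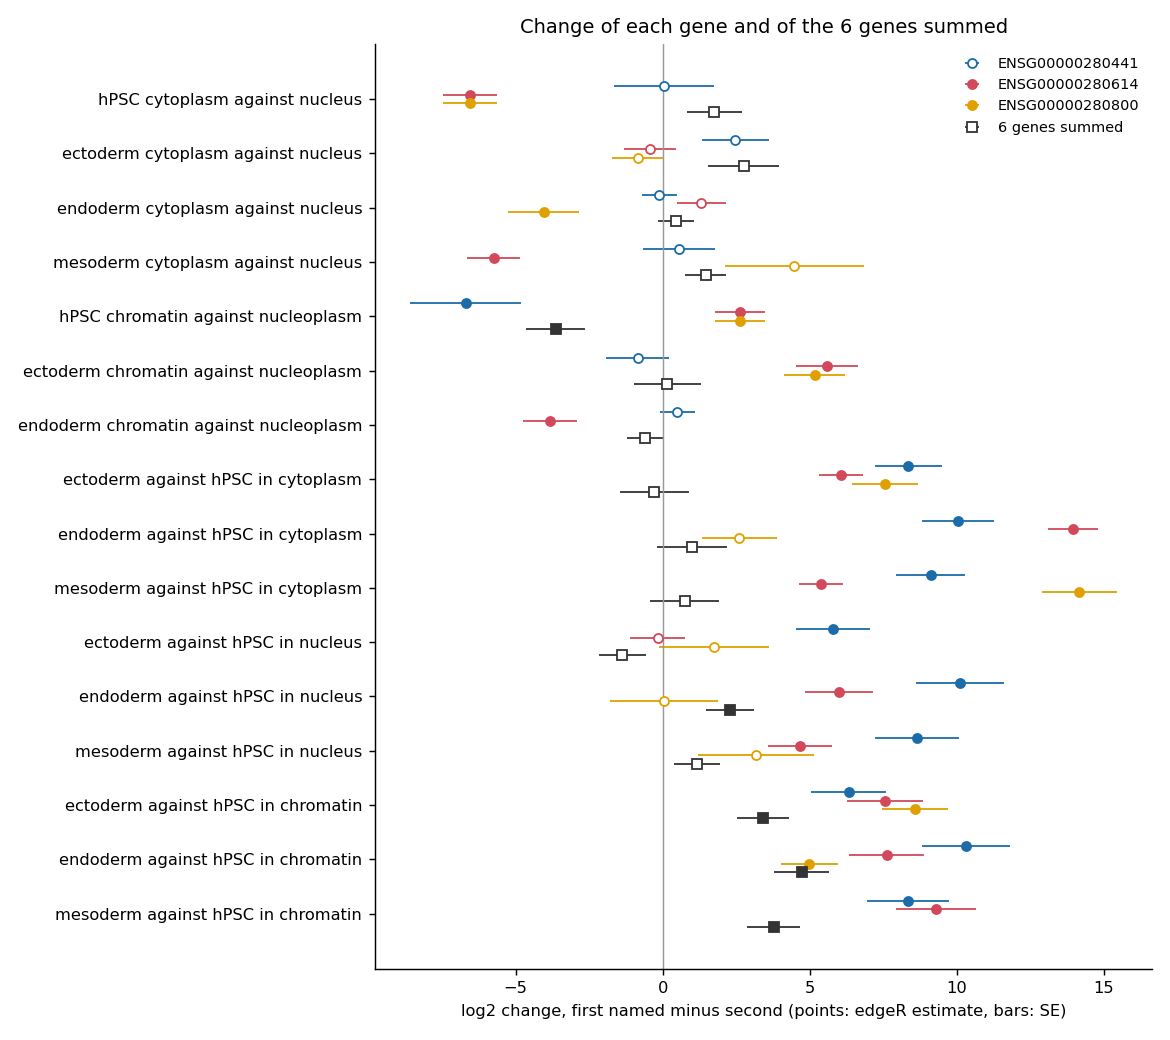
log2 change of each gene and of the 6 genes summed in 16 comparisons, first named minus second (points: edgeR estimates, filled where adjusted p was under 0.05; bars: SE). Changes of ENSG00000280800 against a group at 0 are not drawn; the sum moved less than the members in all 3 cytoplasm comparisons with hPSC.

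The difference between cell types in the cytoplasm-to-nucleus change was tested with an interaction term. In hPSC cytoplasm ENSG00000280614 and ENSG00000280800 each had only 8, 15 and 0 counts. Against hPSC, the change of ENSG00000280614 was higher by 6.30 in ectoderm (SE 1.54, adjusted p = 0.00179) and by 7.89 in endoderm (SE 1.53, adjusted p = 0.000633), and by 0.85 in mesoderm (SE 1.60, adjusted p = 0.728). For ENSG00000280800 it was higher by 11.10 in mesoderm (SE 2.94, adjusted p = 0.00866), a value that depends on mesoderm nucleus 2, the only nuclear library there with counts of the gene, and by 5.87 in ectoderm (adjusted p = 0.0878) and 2.52 in endoderm (adjusted p = 0.520). ENSG00000280441 was called in none of the 3, with edgeR at adjusted or unadjusted p or with DESeq2; its values were 2.66, −0.11 and 0.58. So 1 of 3 members was called in each, against 51.9%, 38% and 25.6% of genes. The 6-gene sum was called in none, where 52%, 38% and 25.6% of features were (1.19, −1.28 and −0.25; adjusted p = 0.546, 0.536 and 0.928).

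Genes of the machinery that makes ribosomal RNA were taken from 2 lists. RNA polymerase I machinery (15 genes tested in hPSC) had 9 genes higher and 2 lower in hPSC cytoplasm than nucleus, with a median log2 change of 0.67 against 0.10 for all genes. Pre-rRNA processing factors (31 tested) had 19 higher and 2 lower, with a median of 0.59. The shares called, 73.3% and 67.7%, were near the 65.4% of all genes. Among these FBL, the methyltransferase of the box C/D particles, rose by 1.30, and NPM1, an abundant nucleolar protein, by 1.48. In ectoderm the same lists had 6 higher and 3 lower of 15 and 11 higher and 9 lower of 31, with medians of −0.19 and −0.03 and 53.7% of all genes called. Endoderm had 7 higher and 3 lower of 14 and 19 higher and 5 lower of 30 (medians 0.48 and 0.68; 69.8% of genes called), and mesoderm 4 higher and 4 lower of 15 and 5 higher and 9 lower of 31 (medians 0.06 and −0.03; 63.3% called). Against hPSC cytoplasm, most genes of both lists were lower. Of 30 processing genes tested, 28 were lower and 1 higher in ectoderm (median −1.26), 22 lower in endoderm (−0.46) and 29 lower in mesoderm (−0.95); of 14 polymerase I genes, 10 lower and 1 higher, 8 lower and 1 higher, and 10 lower (medians −0.55, −0.43 and −0.51). All genes called were 76%, 58.1% and 68.1%. The median of all genes lay within 0.01 of 0 in these 3 comparisons. UBTF, the factor that binds ribosomal DNA along the repeat, changed by −0.49 in endoderm, −1.12 in mesoderm and −2.54 in ectoderm, each called.

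Mitochondrial ribosomal RNAs, which are encoded outside these repeats and lie outside the nucleus, went partly against the fraction labels. In hPSC, MT-RNR2 was lower in cytoplasm than in nucleus (−4.69, SE 0.25), as was MT-RNR1 (−3.47, SE 0.16). Both were lower there in ectoderm (−2.82 and −2.94) and endoderm (−4.15 and −3.85) too, and higher in mesoderm cytoplasm (2.43 and 2.35); all 8 changes were called. RN7SL1, the RNA of the signal recognition particle, was higher in cytoplasm in each cell type, by 4.34 in hPSC and 6.39 in mesoderm.

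The genes whose replicate-to-replicate pattern was most like that of each member were found among 9178 genes by the correlation of log2(CPM + 1) deviations from the group mean over 45 libraries, which share their depth and fraction preparation with the member. For ENSG00000280441 they were C10orf95-AS1 (r = 0.496), STRADA (0.429), WHRN (0.422), ELMOD3 (0.417) and ANO8 (0.410). For ENSG00000280614 they were ZNF600 (0.640), RELL2 (0.624), NKIRAS1 (0.596), UBXN11 (0.557) and CHKA (0.548). For ENSG00000280800 they were KATNA1 (0.681), GADD45A (0.641), FRZB (0.639), PRKRA (0.629) and CENPN (0.625). These are the highest values of many genes and are a description only. Between the members themselves the same correlation was 0.332 for ENSG00000280441 with ENSG00000280614, 0.197 for ENSG00000280441 with ENSG00000280800 and 0.233 for ENSG00000280614 with ENSG00000280800. The last value is not like the others: these genes have equal counts in all 12 hPSC libraries, so their deviations there are equal in advance.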

How the data were processed

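RNA-seq of 46 libraries was analysed. Counts per transcript were deposited by the authors in 1 table per cell type, each on that cell type's own assembly, with a TPM table of the same rows; RSEM, STAR and hg38 are named, without roles or versions, per the submitters' processing notes. Counts were summed per Ensembl gene. The members and lists were chosen with earlier results of these data known, and no adjusted p allows for that choice. In the ectoderm count table and the ectoderm TPM table, 1 column each matched no sample and was not used. Counts were tested with edgeR 4.0.16 (TMM, filterByExpr with a minimum count of 10, quasi-likelihood test, Benjamini-Hochberg over all genes, threshold 0.05) in R 4.3.3, with all groups of a cell type, or of the compared fractions, in 1 fit. Alternatives were total-count scaling, DESeq2 1.42.0, no filter, limma 3.58.1 (trend on log2(TPM + 1), and voom with quality weights), a replicate block, the combined assembly, and leaving out each library. The sum of 6 genes and of all rows of the locus was added after seeing the data. Named genes are the members, the 3 other genes of the repeats, genes of the lists, and the 5 genes most alike to each member. On data simulated for hPSC cytoplasm against nucleus (14028 genes), 80% of genes changed 2-fold and 99% of those changed 4-fold were called. The changed genes were drawn at random and kept their own spread, so these shares do not apply to the members or their sums. Median coefficients of variation were 70.7% to 86.4% for the members and 10.1% for the median gene. Same-numbered replicates were checked for pairing in 16 comparisons, and the numbers paired none. Some of the 16 are between cell types, which are different cultures. Each culture was split into its fractions, so the check does not show that fractions are independent. The main fits did not pair them.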

Additional observations from a re-analysis of the deposited data

Results flagged for a closer look

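A set of 3 changes between cytoplasm and nucleus differed from that in hPSC by a test of the difference itself, on the log2 scale with edgeR's adjusted p. For ENSG00000280614 the difference was 6.30 in ectoderm (adjusted p = 0.00179) and 7.89 in endoderm (adjusted p = 0.000633), and for ENSG00000280800 it was 11.10 in mesoderm (adjusted p = 0.00866). Both genes had only 8, 15 and 0 counts in hPSC cytoplasm. The mesoderm value depends on nucleus 2 and ran from 9.62 to 26.98 over fits that each left out a library. The cell types were counted on separate assemblies, so cell type and assembly cannot be told apart. ENSG00000280614 also moved in opposite directions without overlap in pairs of cell types, and these differences were not tested. Its change of cytoplasm against nucleus was −5.75 in mesoderm and 1.31 in endoderm, where it was not called. Its change of chromatin against nucleoplasm was −3.84 in endoderm, 2.63 in hPSC and 5.59 in ectoderm. On the combined assembly the ectoderm value was −1.84, and the hPSC call was lost in most fits that left out a single library. Groups of 3 libraries were not tested for single libraries that stand apart.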

How the results depend on the processing

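Of the 36 member changes called, all 36 kept direction and call without the filter and with total-count scaling, 35 with the replicate block, 34 with limma-trend on TPM and 32 with voom quality weights. Within hPSC, ENSG00000280614 and ENSG00000280800 have equal counts, so their calls there enter these numbers for both genes. DESeq2 gave 29 of 30 again, and it gave no adjusted p for 10 members in 8 comparisons. Over 234 refits without 1 library, 222 kept the call, 11 lost it and 1 reversed while called. With total counts the median change of all genes moved by over 0.1 in 13 of 19 comparisons, from −0.39 to 0.70. The numbers paired the replicates in none of 16 comparisons (r from −0.56 to 0.52), which does not show that fractions split from a culture are independent. The cause was not tested for the changes below unless the setting itself shows it.

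Counts of members called that moved by over 1.5 times were these: ectoderm cytoplasm against nucleus from 0 to 1 with limma-trend and on the combined assembly; endoderm from 1 to 0 with DESeq2 and 2 with voom; mesoderm from 1 to 2 with limma-trend, voom and the replicate block; hPSC chromatin against nucleoplasm from 3 to 0 with voom; ectoderm from 2 to 0 on the combined assembly, where ENSG00000280800 has no row; and ectoderm against hPSC in nucleus from 1 to 2 with voom. Without 1 library the counts ran from 0 to 1, 1 to 2, 1 to 2 and 1 to 2 for the first 4 of these. Smaller moves were hPSC chromatin against nucleoplasm from 3 to 2 with limma-trend and the block; mesoderm against hPSC chromatin from 3 to 2 with voom; and from 2 to 3, ectoderm chromatin against nucleoplasm with voom, endoderm against hPSC cytoplasm with limma-trend or without endoderm cytoplasm 3, and mesoderm against hPSC nucleus with voom or without mesoderm nucleus 2. The ratio of the highest to the lowest summed share, 8182, was 32083 in TPM, 269 for the 6 genes and for all rows of the locus (268.9 and 269.0), and 5430 to 8182 without 1 replicate number; replicate 3 holds the lowest library, and the highest, mesoderm nucleoplasm, is taken as replicate 1 although its column is numbered 3.

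Changes that turned sign were mostly far from the threshold. ENSG00000280441 in hPSC cytoplasm against nucleus was −0.21 with limma-trend, −0.020 with the replicate block and −0.14 to 0.26 without 1 library. In endoderm it was 0.45 with total counts, 0.80 with limma-trend, 0.26 with the block and −0.61 to 0.93 without 1 library; in mesoderm −0.0045 to 2.52. In hPSC chromatin against nucleoplasm it was −7.34 to 1.55 without 1 library. ENSG00000280614 on the combined assembly was 3.25 in ectoderm cytoplasm against nucleus and −1.84 in chromatin against nucleoplasm. Against hPSC nucleus it was 0.34 (limma-trend), 0.28 (block), 0.74 (voom) and −0.65 to 1.29 without 1 library in ectoderm. ENSG00000280800 there was −0.21 (total counts), −0.13 (limma-trend) and −0.85 to 1.53 in endoderm, and −0.36 (limma-trend), −6.55 (voom) and −12.48 to 4.65 in mesoderm. Differences against hPSC were 0.27 (total counts), 1.01 (limma-trend), 0.23 (block) and −0.61 to 0.93 for ENSG00000280441 in endoderm, and −2.67 (limma-trend) and −0.63 to 1.72 for ENSG00000280614 in mesoderm. The 6-gene sum in ectoderm chromatin against nucleoplasm was −1.30 (block), −1.21 (combined assembly) and −1.93 to 0.71 without 1 library. Without 1 library it was −0.23 to 3.36 and −0.054 to 1.58 in ectoderm and endoderm cytoplasm against nucleus, −3.26 to 0.39 in ectoderm against hPSC cytoplasm, and −1.81 to 1.86 and −1.19 to 0.69 in the differences of ectoderm and mesoderm against hPSC.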
